A study of Caenorhabditis elegans with 4 samples.

Results

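The vitellogenin genes of Caenorhabditis elegans, vit-1 to vit-6, were examined for binding of the transcription factor UNC-62 in embryos. They were chosen by gene symbol, and all 6 were found among the 19971 protein-coding genes on the nuclear chromosomes of the gene table. The study used ChIP-seq, in which DNA crosslinked to a protein is precipitated with it and sequenced, with 2 UNC-62 ChIP replicates and 2 Input samples of DNA from the whole lysate. All 4 samples were embryos of the strain OP600, labelled hermaphrodite, grown at 20 °C and treated with 2% formaldehyde. All carried the unc119(ed3) mutation and the transgene wgIs600, which holds unc-62 fused to TY1, EGFP and FLAG tags beside unc119. The precipitated protein is thus the product of a transgene introduced by bombardment, and the genotype lists no change at the native unc-62 gene. The chromatin came from whole embryos, in which the intestine is a minor part, and the signal of its cells cannot be told apart from that of other cells. Age within embryogenesis, and whether the replicates were separate cultures, are not stated.

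Vitellogenins are yolk proteins. In this species they are made in the intestine of the adult hermaphrodite, secreted into the body cavity and taken up by growing oocytes through the receptor RME-2, so an embryo carries yolk protein that its mother made. UNC-62 is a homeodomain protein of the MEIS class which, with the PBC-class partner CEH-60, is known to act on vit genes in the adult intestine. The embryo lists therefore address whether the tagged protein was placed near these genes at a stage at which they are not known to be active.

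The data are 3 lists of regions, 1 for each ChIP replicate (7782 regions in replicate 1, 3138 in replicate 2) and 1 for the whole series (7964 regions). Each region has a position on the WormBase WS220 build and 1 listed value, read here as a q-value, the smaller the stronger. Replicate 1 was held to a looser limit, with q-values up to 0.00999, than replicate 2 (up to 0.000998) and the series (up to 0.000997). The lists give no read counts, so the depth is unknown and no value carries a counting error. Input samples enter only as far as the peak calling used them.

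A gene's neighbourhood was taken as the gene and 5 kb past either end, and a region belonged to it when its midpoint lay inside. The intended window ran from 5 kb before the 5′ end to 1 kb past the 3′ end, but the gene table gives no strand, so the wider window, which contains the intended one in either orientation, was used for every gene. The gene table is on WBcel235 and the regions are on WS220. Distances from genes are therefore given to 0.1 kb, with offsets between the builds taken as at most 100 bp.

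Vitellogenin genes carried few UNC-62 regions in embryos. In the series list 1 of the 6 genes, vit-2, had a region in its neighbourhood, and the same was true of 52.2% of all protein-coding genes. Replicate 1 placed one at 2 of the 6, vit-2 and vit-5, set beside 51.5% of all genes. Replicate 2 placed one at 0 of the 6, set beside 27.5% of all genes. No vit gene had a region in both replicates, a state found for 26.9% of all genes. These counts describe 6 genes chosen by name and are given with no test.

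The intended window was then applied with 1 orientation taken for every gene. With the 5′ end at the lower coordinate, the intended window held a series region at 1 of the 6 vit genes (41.9% of all genes), a replicate 1 region at 2 (41%) and a replicate 2 region at 0 (20.6%). With the 5′ end at the higher coordinate it held a region at 0 of the 6 in each list, where the shares of all genes were 41.7% in the series, 41% in replicate 1 and 20.4% in replicate 2. The orientation of vit-2 and vit-5 therefore decides whether any vit gene had an upstream region, and the other 4 had none in either case.

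The windows of the vit genes were longer than most. The 6 genes span 5.13 to 5.3 kb, and their windows had a median length of 15.2 kb, against 12 kb for all protein-coding genes. A vit gene had on average 0.33 regions in the series list, against 0.98 for all genes, and 0.50 in the replicate 1 list, against 0.96. The 5 genes on X lie on a chromosome where windows were occupied more often. There 1 of 5 vit genes had a series region, against 59% of the protein-coding genes on X, 2 of 5 had a replicate 1 region, against 58.9%, and 0 of 5 had a replicate 2 region, against 34.9%. The remaining gene, vit-6 on chromosome IV, had 0 regions in its window in the series list, where 51.8% of the genes on IV had at least 1.

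**Figure D1:**
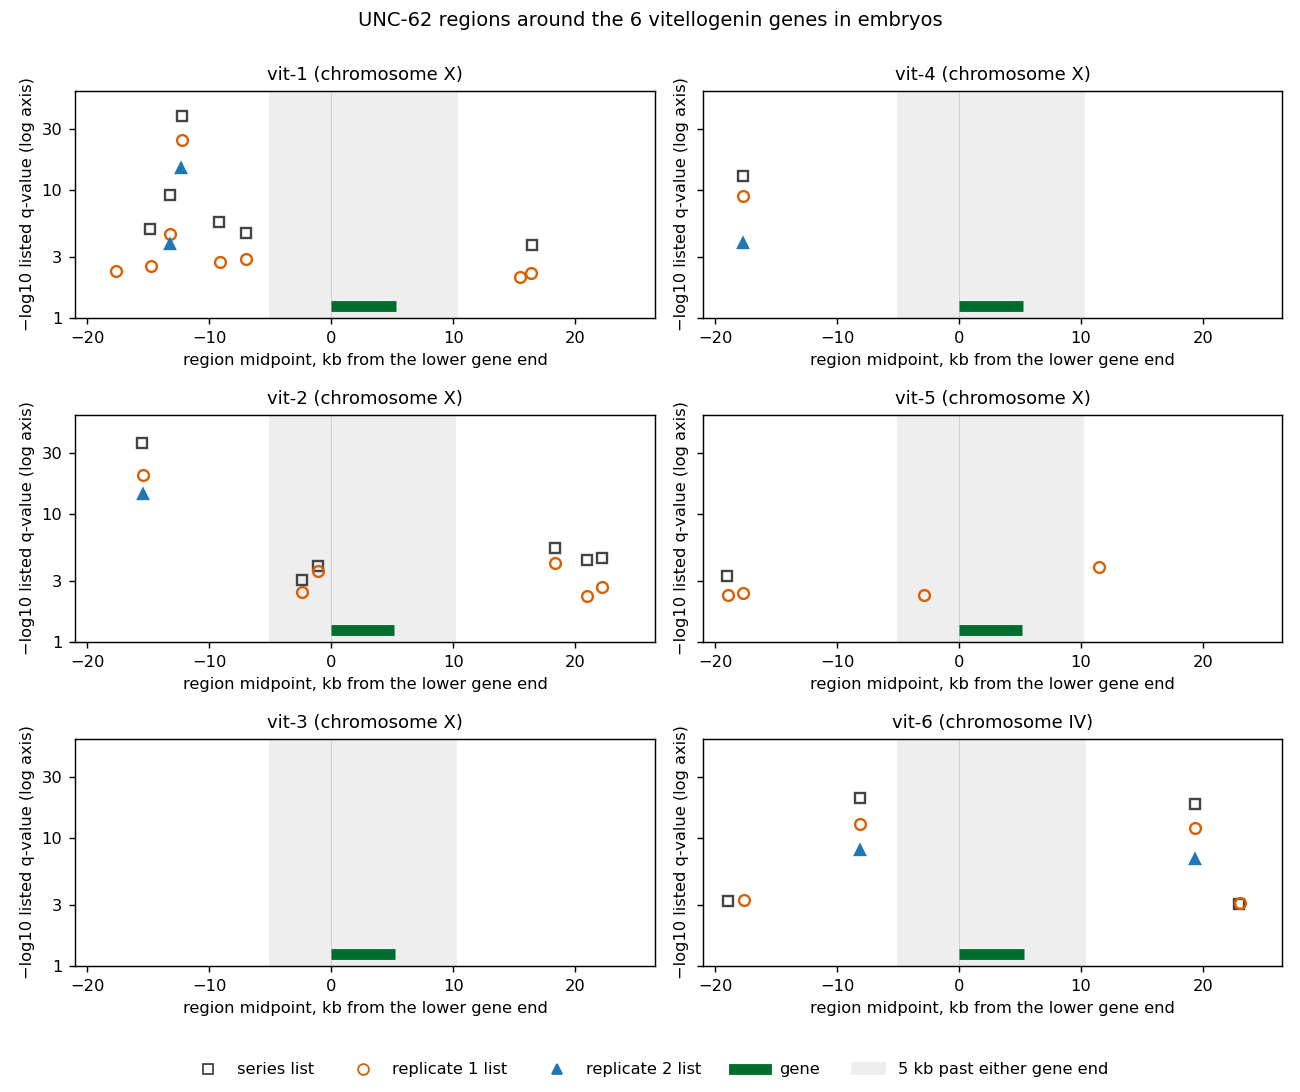
Region midpoints around each vitellogenin gene, in kb from the gene end with the lower coordinate (horizontal axis), against the −log10 of the listed q-value (vertical log axis); squares are the series list, open circles replicate 1, filled triangles replicate 2, the green bar is the gene and the grey band reaches 5 kb past either gene end. The grey bands hold 2 squares and 2 circles at vit-2, 1 circle at vit-5 and no triangle at any gene, and the panel of vit-3 is empty.

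Of the 6 genes, vit-2 (C42D8.2) was the one with regions in the series list. They were 2 narrow regions on the lower-coordinate side of the gene, at X 5099827 to 5099980 (154 bp) and at X 5098471 to 5098759 (289 bp), about 1.1 and 2.4 kb from the gene. They would count as upstream regions if the 5′ end of vit-2 is the lower-coordinate end. If it is the other end, they lie past the intended window, and the count in the series list is 0 of 6. The nearer region had a q-value of 0.000114 and rank 6473 of 7964, and the farther one had 0.000859 and rank 7832 of 7964. Both thus belonged to the weak end of the list, with 18.7% and 1.67% of series regions at the same q-value or weaker.

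Replicate 1 placed a pair of regions at the same spots as the series list. How the series list was made is not stated, so it may not be independent of replicate 1. The nearer, X 5099888 to 5100015 (128 bp), had a q-value of 0.000249 and rank 4799 of 7782 and shared 93 bp with its series counterpart. The farther, X 5098476 to 5098745 (270 bp), had a q-value of 0.00344 and rank 6666 of 7782 and lay wholly within its counterpart, sharing 270 bp. The farther one would not have entered a list limited to 0.001, the limit that the other lists kept to. Together the series regions covered 443 bp of the vit-2 window, or 2.93%, and the replicate 1 regions 398 bp, or 2.63%. For all genes the covered share of the window had a median of 0.72% and a mean of 2.5% in the series list. For genes on X these were 1.86% and 3.24%. Thus vit-2, the most covered of the 6, lay above both medians and the mean of all genes, and below the mean on X.

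In replicate 2 the nearest region to vit-2 was 15.5 kb away, on the same side. That region, X 5085264 to 5085866, had a q-value of 3.81e-15 and was also in replicate 1 and the series list, and its nearest protein-coding gene was ets-5, which encodes an ETS-domain factor. Few series regions of the strength of the vit-2 regions were present in replicate 2, which listed fewer regions than the series. The share over all series regions is not given here, so the following shares do not set weak regions apart from the rest. Of the 1492 series regions ranked with or below the nearer vit-2 region, 23 overlapped a replicate 2 region by at least 1 bp (1.54%, exact 95% Clopper-Pearson interval 0.98 to 2.3%, which treats regions as independent), and 743 overlapped a replicate 1 region (49.8%, interval 47.2 to 52.4%). The annotated genes closest to the vit-2 regions were non-coding RNAs, C42D8.19 at the farther region and C42D8.16 at the nearer, each within 0.1 kb, a distance no larger than the possible offset between the builds. The nearest other protein-coding gene was acn-1, an angiotensin-converting-enzyme-like gene, at 1.5 kb from the farther region and 2.8 kb from the nearer. The farther region was thus closer to acn-1 than to vit-2.

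The second gene with a region, vit-5 (C04F6.1), had it in replicate 1 alone. The region, X 3400449 to 3400690 (242 bp), lay about 2.9 kb from the lower-coordinate end of vit-5 and 0.6 kb from cht-1, a chitinase gene. Its q-value was 0.00467 and its rank 6924 of 7782, so it lay above the limit of 0.001 kept by the other lists. It overlapped no region of the series list and none of replicate 2. Of the 859 replicate 1 regions ranked with or below it, 385 overlapped a series region (44.8%, exact 95% interval 41.5 to 48.2%) and 21 a replicate 2 region (2.44%, interval 1.52 to 3.71%). The shares over all replicate 1 regions are likewise not given. As for vit-2, the region could be upstream in 1 orientation of the gene only. A further replicate 1 region, X 3414921 to 3414951 (31 bp, q-value 0.000135), lay just outside the window at 6.3 kb on the other side, next to dhs-27, a dehydrogenase family gene.

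The other 4 genes had no region within 5 kb in any list, a state shared by 44% of all protein-coding genes. Of the 5 genes on X this held for 3, and it held for 37.5% of all genes on X. They differed in how far away the nearest region was. For vit-1 (K09F5.2) it was 7.0 kb away in the series list, at X 7720683 to 7721080 with a q-value of 2.45e-05. That region lay in or within 0.1 kb of the gene K09F5.6, given the possible offset between the builds. Replicate 1 held the same region at a q-value of 0.00132. In replicate 2 the nearest was 12.3 kb away, X 7715377 to 7715825 with a q-value of 9.66e-16, a strong region of rank 297 of 3138 that also stood at rank 428 in the series list. From that strong region toward vit-1 the series regions became weaker, with q-values of 1.28e-38 at 12.3 kb, 2.07e-06 at 9.2 kb and 2.45e-05 at 7.0 kb.

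The gene vit-6 (K07H8.6), which encodes the precursor of the smaller yolk proteins, lay between a pair of strong regions that both replicates held. On its lower-coordinate side, 8.1 kb away, was IV 8252870 to 8253221, with a q-value of 3.48e-21 and rank 1143 in the series list, 1.26e-13 and rank 1208 in replicate 1, and 7.12e-09 and rank 835 in replicate 2. This was the strongest region within 10 kb of any vit gene and the only one there that replicate 2 contained. Its nearest protein-coding gene other than vit-6 was K07H8.7 at 6.1 kb. On the other side, 14.1 kb from vit-6, was IV 8280347 to 8280714, with q-values of 3.41e-19 in the series list, 8.85e-13 in replicate 1 and 1.44e-07 in replicate 2. The 27.1 kb between these regions held no other region in any of the lists.

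The neighbouring genes vit-3 (F59D8.1) and vit-4 (F59D8.2), which lie 3.4 kb apart on X, stood within 1 region-free stretch and are not separate cases. In the series list this stretch ran for 55.2 kb from X 3541252 to X 3596435, and 34 of the 1536 gaps between regions on X were as long. In replicate 1 it was also 55.2 kb, with 31 of 1510 gaps on X as long, and in replicate 2 it was 64.6 kb, with 76 of 661 as long. The region at its lower end, X 3540809 to 3541252, was held by both replicates and lay next to gyg-1, a glycogenin gene, 17.7 kb from vit-4. For vit-3 the nearest region was 24.1 kb away in the series list, and 12.2% of all protein-coding genes, or 5.68% of those on X, were as far or farther from one. For vit-4 these shares were 18.1% and 10.4%. They are shares of genes, whereas the counts of gaps take each gap once, whatever its length. A stretch of similar length, 55.4 kb, surrounded vit-5 in the series list, where 33 gaps on X were as long. In replicate 1 that stretch held the regions beside vit-5 and dhs-27 and a further one at X 3385667 to 3385903 (q-value 0.00383), and the gap around vit-5 was 14.2 kb.

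**Figure D2:**
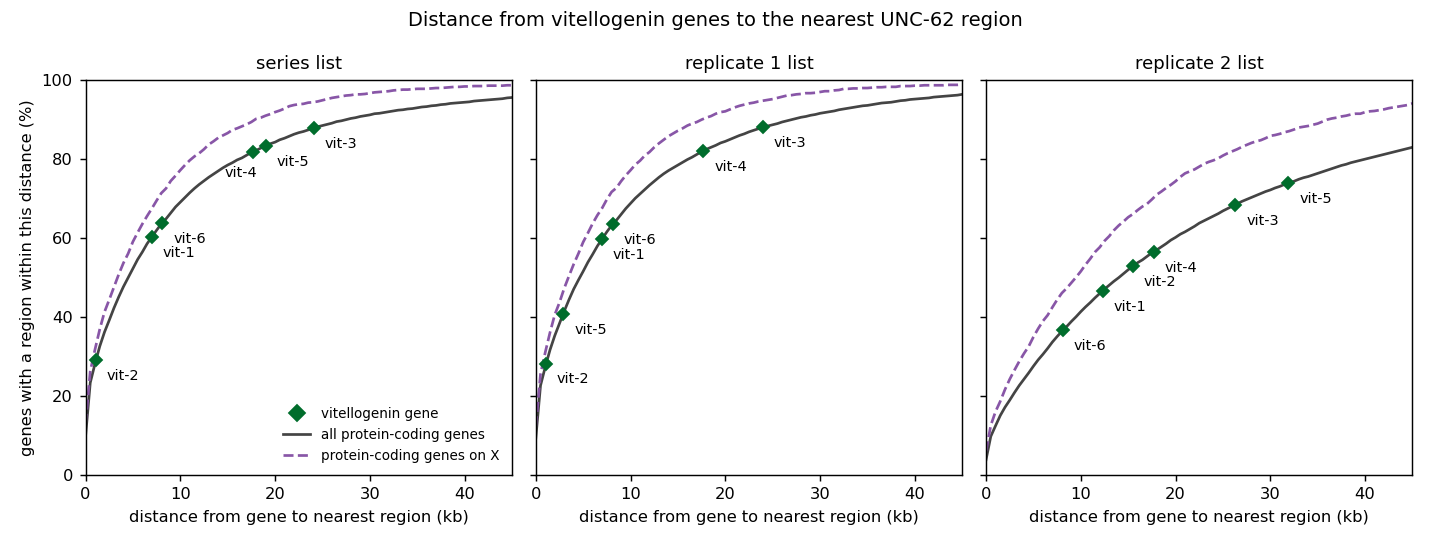
Percent of protein-coding genes with a region midpoint within a given distance in kb of the gene span, for all chromosomes (solid line) and for X (dashed line), in each list; diamonds mark the 6 vitellogenin genes on the solid line at their own distances. In the series list vit-2 sits at 1.1 kb, vit-1 and vit-6 at 7.0 and 8.1 kb, and vit-4, vit-5 and vit-3 at 17.7, 19.0 and 24.1 kb.

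Measured by distance, the 6 genes were spread widely. From 12.2% (for vit-3) to 70.7% (for vit-2) of all protein-coding genes were as far or farther from a series region. The nearest series region was 12.9 kb away at the median of the 6, against 4.52 kb for all protein-coding genes and 3.41 kb for those on X. In replicate 1, which placed a region beside vit-5, the median was 7.56 kb, against 4.66 kb for all genes and 3.44 kb on X. In replicate 2 it was 16.6 kb, against 14 kb for all genes and 9.48 kb on X. The order from near to far was vit-2, vit-1, vit-6, vit-4, vit-5 and vit-3 in the series list. In replicate 2 it was vit-6, vit-1, vit-2, vit-4, vit-3 and vit-5, so the place of vit-2 at the front rested on regions that replicate 2 lacked. For vit-6, 63.5% of all genes were as far or farther from a replicate 2 region.

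Over a wider span the surroundings of the vit genes held 6 to 12 series regions. Within 50 kb of the gene, the series list held 12 regions around vit-1, 11 around vit-2, 7 around vit-3 and vit-4, 6 around vit-5 and 12 around vit-6. The series median over all protein-coding genes was 7 and on X it was 9. In that list vit-1 and vit-2 thus lay above both and vit-5 below both. The gene vit-6, on chromosome IV, lay above the median over all genes. In replicate 1 the counts were 11 for vit-1, 12 for vit-2 and vit-6, 7 for vit-3 and vit-4 and 9 for vit-5. The replicate 1 medians were 7 for all genes and 8 on X, so in that list vit-5 lay above both. In replicate 2 the same span held 5 regions around vit-1, 2 around vit-2 and 3 around each of the other 4, against a median of 3 for all genes. No region midpoint fell inside a vit gene in any list, which was also so for 88.8% of all protein-coding genes. Near-identical genes can share reads that no aligner can place. Sequence identity between the vit genes was not analysed, so an effect of this on their regions was not tested.

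Genes that act on vitellogenins were then set beside them, from lists put together from the known biology of yolk. Among 12 regulators of vit genes, 5 had a region in the series list, 7 in replicate 1 and 3 in replicate 2, where the shares of all genes were 52.2, 51.5 and 27.5%. The windows of these 12 genes had a median length of 16.5 kb, against 12 kb for all protein-coding genes. The 3 with regions in both replicates were unc-62 itself, daf-16, a FOXO factor of insulin signalling, and elt-7, a GATA factor of the intestine. The elt-7 region lay 4.7 kb from the gene and falls outside the intended window if the 5′ end is at the lower coordinate, which leaves 2 such regulators. In that orientation the counts of the 12 were 4, 5 and 2 in the series, replicate 1 and replicate 2, and in the other they were 3, 5 and 3. At unc-62 lay the strongest region of each list, on chromosome V from 4498493 to 4511955 in the series list, with a listed q-value of 0. The strain carries unc-62 in its transgene as well, and reads from the transgene and the native gene cannot be told apart. At daf-16 the strongest region, I 10769325 to 10770293, had a q-value of 7.25e-48 and rank 277 in the series list. At elt-7 the region V 4777572 to 4778010 had a q-value of 7.83e-63 and rank 141 in the series list.

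The genes ceh-60, elt-2 and rme-2 had no region within 5 kb in any list. The nearest to ceh-60, whose product is the partner of UNC-62 at vit genes, was 12.7 kb away in each list. For elt-2, the main GATA factor of the differentiated intestine, it was 18.0 kb in the series list and 36.9 kb in replicate 2. For rme-2, the yolk receptor gene, it was 19.2 kb in the series list and 29.7 kb in replicate 2.

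A further list, put together for yolk receptor, uptake and loading, held rme-1, rme-2, rme-4, rme-6, rme-8, dsc-4, cpl-1 and lrp-2. In the series list and replicate 1, most of these genes had a region nearby. Of 8, regions were found at 7 in the series list, 7 in replicate 1 and 6 in replicate 2, against 1, 2 and 0 of the 6 vit genes and 52.2, 51.5 and 27.5% of all genes. In the intended window the series and replicate 1 counts stayed at 7 in either orientation. The replicate 2 count was 5 with the 5′ end at the lower coordinate and 3 with it at the higher, where rme-1, dsc-4 and lrp-2 had none. The exception in the series list was rme-2. The strongest were at rme-6, a regulator of early endosomes, with X 1093026 to 1093674 at a q-value of 5.52e-80 and rank 81, and at rme-1, an endocytic recycling gene, with V 6203835 to 6204633 at 5.36e-51 and rank 241. Both were present in replicate 2, with q-values of 6.95e-32 and 7.25e-18. The replicate 2 region at rme-1 lay 4.7 kb from the gene. It falls outside the intended window if the 5′ end is at the higher coordinate. The windows of these 8 genes had a median length of 15.8 kb, against the 15.2 kb of the vit genes and the 12 kb of all protein-coding genes.

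The last list held genes of the intestine, the tissue that makes yolk in adults. Of 14, which include elt-2 and elt-7 from the regulators, 5 had a region in the series list, 5 in replicate 1 and 2 in replicate 2, beside the 52.2, 51.5 and 27.5% of all genes. In the intended window the counts were 3, 4 and 1 with the 5′ end at the lower coordinate and 3, 3 and 1 with it at the higher. The 2 in replicate 2 were elt-7 and pho-1, an intestinal acid phosphatase gene. The intestinal actin gene act-5 and the peptide transporter gene pept-1 had none in any list. The gut esterase gene ges-1 had none in the series list or replicate 2 but a narrow one in replicate 1, V 1427524 to 1427547, with a q-value of 0.00844 and rank 7556 of 7782, 0.1 kb from the gene. The difference between vit genes and these lists was not tested, since each is a handful of genes chosen by name.

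**Figure D3:**
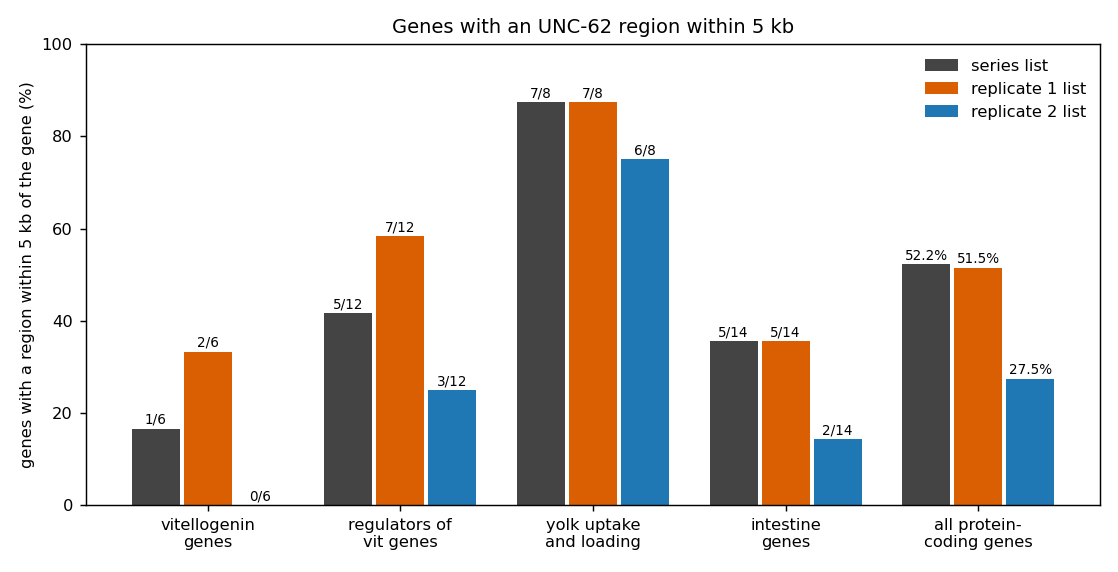
Percent of genes with at least 1 region midpoint within 5 kb of the gene (vertical axis) for the vitellogenin genes, the comparison lists and all protein-coding genes, in each of the 3 region lists; labels give genes with a region over genes in the list. Vitellogenin genes stand at 1, 2 and 0 of 6, while all genes stand at 52.2, 51.5 and 27.5%.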

How the data were processed

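The files used are 3 lists of binding regions, deposited by the authors, for ChIP replicate 1, ChIP replicate 2 and the whole series. Positions refer to WormBase WS220, per the file headers. The files' second column names PeakSeq, which calls regions of enriched reads against a control. No source used here gives the aligner, versions, filters or how the series list was made. The authors deposited 1 unnamed significance value per region as PeakSeq made it, which was read as a q-value; a p-value could not be told from it. Genes came from a RefSeq table on WBcel235 without strand, so windows ran 5 kb past either gene end, and both orientations were run as alternatives. A region was assigned by its midpoint with Python 3.11.15 and pandas 2.3.3, and overlap meant at least 1 bp. Functions were tested on simulated intervals. The members and gene lists were chosen with earlier results of these data known. All 6 vit genes, the regions in or nearest to their windows and a fixed few genes of each list were named. No test between groups of samples was possible. Promoter motifs and sequence identity, though planned, were not analysed here.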

Additional observations from a re-analysis of the deposited data

How the results depend on the processing

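The count of 1 of 6 vit genes with a series region held for 5 kb flanks without the gene span, 2 kb flanks, any overlap, windows moved by 100 bp, regions of 20 bp or wider and a 5′ end at the lower coordinate. It was 0 with the 5′ end at the higher coordinate, with 1 kb flanks, with 300 bp around each gene end, in the stronger 50% of regions and among regions found in both replicates, and 3 (vit-1, vit-2 and vit-6) with 10 kb flanks. With the list of 1 replicate in place of the series list it ranged from 0 without replicate 1 to 2 without replicate 2. The 0 vit genes with a region in both replicates became 1, vit-6, with 10 kb flanks. With replicate 1 held to q-values under 0.001, 1 vit gene in place of 2 had a region. Shares of all protein-coding genes moved too, to 69% with 10 kb flanks, 36.1% with 2 kb flanks and 28.1% with 1 kb flanks. They were 49.4% for 5 kb flanks without the gene span and 13.9% with 300 bp around each gene end. With the 5′ end at the lower and higher coordinate they were 41.9 and 41.7%. The share was 32.9% in the stronger 50% and 26.3% among regions found in both replicates. For both replicates with 10 kb flanks, and for replicate 1 under 0.001, the shares of all genes are not given here. Shorter windows and shorter lists lower both counts by construction. The settings for orientation, 1 kb flanks and the 0.001 limit were chosen after seeing the data. No paired analysis was possible because only ChIP libraries have lists here. Depth is unknown, so a site without a region may have been bound below detection. Whether reads shared by near-identical vit genes left sites in them without a region was not tested.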
